A study of Rattus norvegicus with 8 samples.

Results

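Phase II conjugation enzymes attach a polar group to drugs, hormones, bile pigments and oxidised lipids, so that these compounds can be exported from the cell. Glutathione transferases (GSTs) use glutathione and are soluble (alpha, kappa, mu, omega, pi and theta classes) or membrane-bound (the microsomal GSTs). UDP-glucuronosyltransferases (UGTs) use UDP-glucuronic acid and sit in the endoplasmic reticulum, and cytosolic sulfotransferases (SULTs) use the sulfate donor PAPS. In liver these families are abundant in hepatocytes, and several members are known targets of the xenobiotic sensors Ahr, Nfe2l2, Nr1i2 and Nr1i3.

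The enzymes were taken as the non-control probes of a rat oligonucleotide microarray whose gene name begins with one of the GST class prefixes, Mgst, Ugt or Sult, whatever their values. The rule found 60 probes under 50 gene names, of 41012 non-control probes. It takes in 27 GST probes, 16 SULT probes and 17 UGT probes. It goes by the name in the files, so a relative filed under a provisional locus name was not included.

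RNA came from the BRL-3A cell line, which was grown out of rat liver and is kept as an established line, and cells were lysed 48 h after lipofection of an siRNA. The 4 NC arrays carried cells given the control labelled NC, and the 4 siRNA arrays carried cells given siRNA lnc19959.2, aimed at a long noncoding RNA that the study's title links to triglyceride metabolism genes. Whether the arrays of a group came from separate cultures was not given in the sources used here, so the tests see only array-to-array spread, part or all of which may be technical. The 4 NC arrays lay on 1 slide and the 4 siRNA arrays on another, with a separate scan for each, so group, slide and scan run together and cannot be told apart. The level of lnc19959.2 itself was not analysed here. In RNA from a whole culture, fewer cells of a type and less RNA per cell cannot be told apart.

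Expression was read as the log2 of the processed intensity minus the 75th percentile of its array, so a level of 0 is that percentile. Levels of different probes are not comparable with each other, because each probe has its own brightness. A probe was tested where it was well above background on at least 3 of 4 arrays of at least 1 group, and it was called where limma's Benjamini-Hochberg adjusted p over all 24853 probes tested was under 0.05. Of the 60 phase II probes, 27 under 22 names were kept and 33 were not. Of 17 defining hepatocyte markers listed, 8 (Alb, Ttr, Tf, Serpina1, Apoa2, Ahsg, Tat and Pck1) were above background on no array, and 7 (Apoa1, Cyp2e1, G6pc1, Krt18, Hnf4a, Fgb and Krt8) were detected often enough to be tested.

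The probes shown here belong to members described at length: Gsta4 and Sult1d1, relatives of the SULT1, mu and microsomal families whose values differ, and the UGT1 locus. They let a reader see which stretch of each transcript was measured. They are printed as the files list them, with rn4 positions where each gene is described. Exon and UTR annotation was not used here. Capitals mark the longest run shared by the Sult1a1 and Sult1d1 probes.
Gsta4: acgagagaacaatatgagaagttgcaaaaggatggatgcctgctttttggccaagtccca
Sult1d1: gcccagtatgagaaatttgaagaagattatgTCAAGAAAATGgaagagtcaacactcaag
Sult1a1: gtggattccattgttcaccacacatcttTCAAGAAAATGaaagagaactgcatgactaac
Gstm2: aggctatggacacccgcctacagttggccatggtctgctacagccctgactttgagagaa
Gstm5: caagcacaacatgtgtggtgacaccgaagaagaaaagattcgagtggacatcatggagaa
Mgst1: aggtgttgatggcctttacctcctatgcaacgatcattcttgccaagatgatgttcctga
Mgst2: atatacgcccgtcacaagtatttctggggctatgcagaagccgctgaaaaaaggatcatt
Mgst3, brighter probe: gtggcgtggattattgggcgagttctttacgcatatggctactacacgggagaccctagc
Ugt1a6: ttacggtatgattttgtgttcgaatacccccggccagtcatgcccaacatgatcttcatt
Ugt1a2, dimmer probe: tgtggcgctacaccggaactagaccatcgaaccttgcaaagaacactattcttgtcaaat
The Sult1a1 and Sult1d1 probes share 11 of 60 bases in a row. That was also the longest run found in any of the 28 pairs of tested probes of different members of 1 family. Probes were compared only with each other and not with the transcripts of relatives. Whether a probe also reads a relative's transcript was therefore not tested.

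Among the 27 tested probes, 13 were higher and 3 lower in the siRNA arrays, and 11 were not called, so 16 of 27 were called beside 61.6% of all probes. The share called higher was 48.1%, beside 29.4% of all probes tested, and the share called lower was 11.1%, beside 32.2%. The median log2 difference of the phase II probes was 0.17, against -0.03 over all probes tested. The siRNA arrays lay wholly above the NC arrays for 14 phase II probes and wholly below for 3, where 28.2% and 29.9% of all probes did so. By gene, each taken at its brightest tested probe, 10 of 22 were higher and 3 lower, beside 35.3% and 29.3% of 11476 genes, or 64.6% called in either direction. Large differences were few: 2 probes were called at least 2-fold higher and 1 at least 2-fold lower, beside 2.96% and 7.23% of all probes. By brightest probe these were 1 gene higher, Gsta4, and 1 lower, Sult1d1, beside 3.63% and 7.31% of all genes. The split depended on the scaling, which also moved the split of all 24853 probes. With arrays scaled to their median, 19 phase II probes were higher and 1 lower, beside 13020 and 4211 of all probes. Scaled to spike-in RNA, 21 were higher and 1 lower, beside 16958 and 2142. The counts were 12 and 5 after quantile normalization, beside 8081 and 6823, and 12 and 6 after cyclic loess, beside 7454 and 7475. With the 75th percentile taken over bright spots only, they were 12 and 7, beside 6106 and 9304. Of the 23 phase II probes well above background on all 8 arrays, 12 were higher and 3 lower, beside 6889 and 5943 of 20672 probes. Sult1d1 and the dimmer Gstt2 probe are not among those 23. Each was kept through 1 group alone, which favours a call in the direction of that group.

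**Figure D1:**
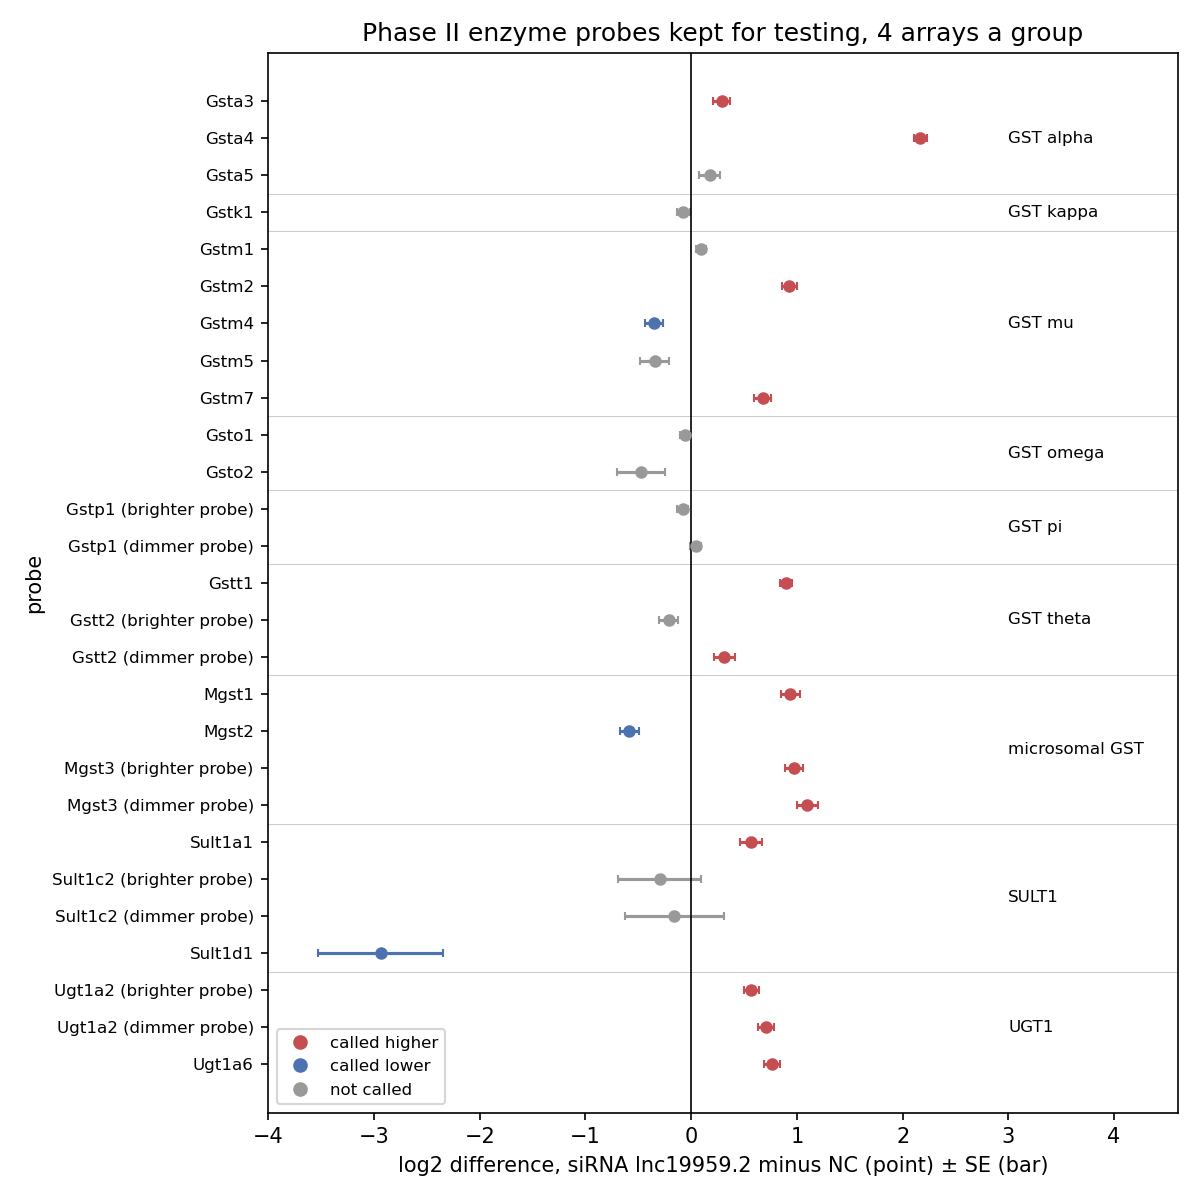
Log2 difference in scaled intensity, siRNA lnc19959.2 minus NC (horizontal axis, point), with its standard error (bar), for each of the 27 phase II probes tested, grouped by family on 4 arrays a group. Gsta4 lies farthest right at 2.17 and Sult1d1 farthest left at -2.94. Gstm4 and Mgst2, drawn as lower, turn to 0.30 and 0.07 under spike-in scaling.

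Among the alpha class GSTs, Gsta4, known for conjugating the lipid peroxidation product 4-hydroxynonenal, rose the most of all phase II genes tested. Its probe maps to chr8:83172208-83176843 (rn4, plus strand), a span longer than the probe, so it aligned in pieces. The Gsta4 level was -1.40, -1.68, -1.59 and -1.51 on the 4 NC arrays and 0.64, 0.60, 0.63 and 0.62 on the siRNA arrays. All siRNA arrays lay far above all NC arrays and close to each other. The group means were -1.54 ± 0.12 and 0.62 ± 0.02 (SD, n = 4), a log2 difference of 2.17 ± 0.06 (SE), or 4.49-fold (limma adjusted p = 3.84e-07). This call held in all 19 alternative settings, with log2 differences from 1.49 to 2.82.

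The other alpha class probes moved little. The probe named Gsta3, which its accession places under the current RefSeq name Gsta1, rose by 0.29 ± 0.08 on the log2 scale (SE, limma adjusted p = 0.0158). Its call was lost after quantile normalization, cyclic loess and normexp background correction, where the log2 differences were 0.19, 0.18 and 0.53. The probe named Gsta5, now Gsta3 in RefSeq, was not called at 0.17 ± 0.10. Within each array, which removes any scaling that subtracts 1 number per array, the Gsta4 log2 signal minus the Gsta3 one was -4.83 ± 0.21 in NC and -2.95 ± 0.12 in siRNA arrays (SD, n = 4). The groups did not overlap in that within-array difference.

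The mu class genes lie side by side on rat chromosome 2, between 203457561 and 203606415 on rn4, and their probes split in direction. In chromosome order they were Gstm5, Gstm6l, Gstm7, Gstm3, Gstm2, Gstm1 and Gstm4, and all conjugate glutathione to electrophiles. Gstm6l and Gstm3 were not kept. The Gstm2 probe aligned in pieces over chr2:203551176-203552101 (rn4, minus strand). Gstm2 gave -0.56, -0.71, -0.79 and -0.53 on the NC arrays and 0.24, 0.30, 0.22 and 0.37 on the siRNA arrays. All siRNA arrays were above all NC arrays, and Gstm2 rose by 0.93 ± 0.07 on the log2 scale (SE, limma adjusted p = 3.18e-05).

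Gstm7, 2 places away in that order, gave -2.20, -2.20, -2.50 and -2.26 on the NC arrays and -1.55, -1.63, -1.61 and -1.68 on the siRNA arrays. The groups did not overlap, and Gstm7 rose by 0.67 ± 0.08 (SE, limma adjusted p = 0.000185), though only 0.02 was left after normexp background correction. Gstm4, at the far end, gave -0.73, -0.56, -0.35 and -0.62 on the NC arrays and -0.89, -0.95, -0.83 and -1.0 on the siRNA arrays. All its siRNA arrays were below all NC arrays, and it fell by 0.35 on the log2 scale (SE 0.09, limma adjusted p = 0.0084), whereas the difference was -0.04 after scaling to the array median and 0.30 after scaling to spike-in RNA, and after normexp it was -0.32 and not called.

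Gstm1 was not called at 0.09 ± 0.04, although its siRNA arrays, 0.73 to 0.84, all lay above its NC arrays, 0.65 to 0.71. Gstm5, at the other end of the row, was not called at -0.35 ± 0.14 (limma adjusted p = 0.0585), with siRNA arrays from 2.24 to 2.84 and NC arrays from 2.74 to 3.07. Gstm5 was called lower in 8 of the 19 alternatives, among them quantile normalization at -0.46 and the replicate block at -0.35, whereas with spike-in scaling it was 0.31 and not called. The Gstm2 log2 signal minus the Gstm4 one was -0.08 ± 0.28 in NC and 1.20 ± 0.14 in siRNA arrays (SD, n = 4), a shift of 1.28 with no overlap between groups. The Gstm2 signal minus that of its direct neighbour Gstm1 shifted by 0.84, also with no overlap.

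**Figure D2:**
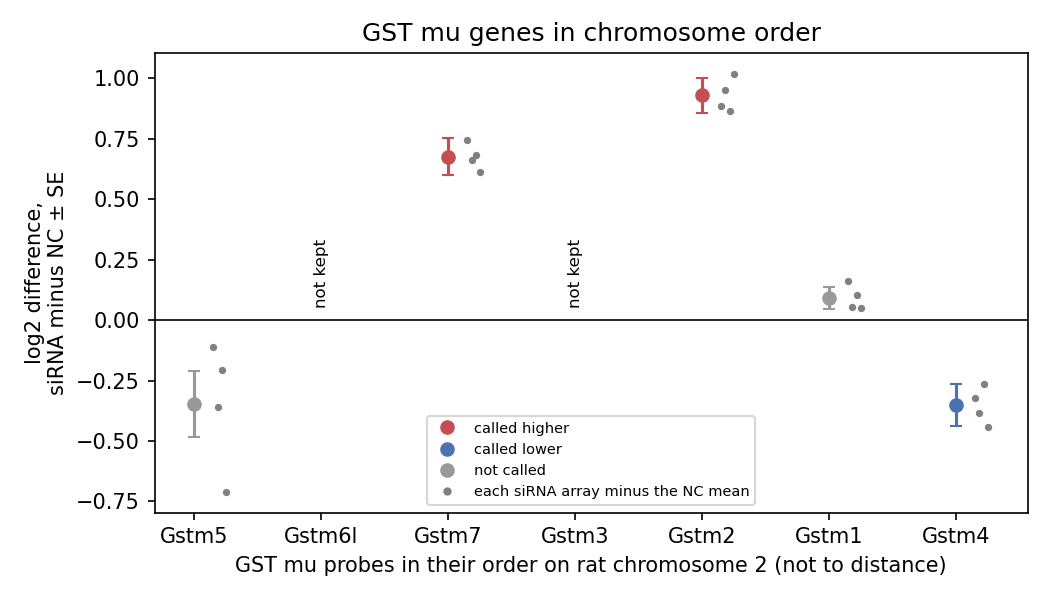
Log2 difference, siRNA minus NC (vertical axis, large point), with its standard error (bar), for the 7 GST mu probes in their order on rat chromosome 2, and small points for each siRNA array minus the NC mean. Gstm7 and Gstm2 lie at 0.67 and 0.93, Gstm4 at -0.35 (0.30 under spike-in scaling), and Gstm6l and Gstm3 were not kept.

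All 3 microsomal GSTs were measured, and they did not move together. Their probes lie at chr4:175254945-175255004 (Mgst1, plus strand), chr2:140567741-140568393 (Mgst2, plus) and chr13:83038290-83039559 (Mgst3, brighter, minus) on rn4. Mgst1, an abundant glutathione transferase of the endoplasmic reticulum and outer mitochondrial membrane, gave 3.48, 3.18, 3.34 and 3.29 on the NC arrays and 4.40, 4.18, 4.37 and 4.10 on the siRNA arrays. The lowest siRNA array was well above the highest NC array, and Mgst1 rose by 0.94 ± 0.09 on the log2 scale (SE, limma adjusted p = 9.62e-05). Mgst3, which has glutathione transferase and peroxidase activity, was read by a pair of probes that both rose. Its brighter probe gave -1.84, -1.98, -2.04 and -1.65 in NC and -0.91, -0.94, -0.91 and -0.85 in siRNA arrays, again with no overlap.

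The brighter Mgst3 probe differed by 0.97 ± 0.09 and the dimmer one by 1.10 ± 0.10 (SE, limma adjusted p = 5.97e-05 and 5.89e-05). After normexp background correction the values were 0.16 and -0.05, neither of them called. Mgst2, which can make leukotriene C4, gave 4.74, 4.56, 4.35 and 4.59 on the NC arrays and 4.00, 4.11, 3.93 and 3.86 on the siRNA arrays. All siRNA arrays lay below all NC arrays. Mgst2 fell by 0.58 on the log2 scale (SE 0.09, limma adjusted p = 0.000907), but the difference was -0.27 by median scaling, -0.30 after normexp and 0.07 by spike-in scaling, none of them called. Within arrays, the Mgst2 log2 signal minus the Mgst1 one went from 1.24 ± 0.16 in NC to -0.29 ± 0.17 in siRNA arrays (SD, n = 4), with no overlap. The Mgst3 signal minus the Mgst1 one shifted by only 0.03, and there the groups overlapped.

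In the theta class, Gstt1, which acts on small halogenated compounds, gave -1.0, -1.05, -1.01 and -1.04 on the NC arrays and -0.04, -0.06, -0.24 and -0.17 on the siRNA arrays. No siRNA array reached down to the NC arrays, and Gstt1 rose by 0.90 ± 0.06 (SE, limma adjusted p = 1.21e-05). It was not called after normexp, at 0.42. The probes of Gstt2 disagreed: the brighter one was not called at -0.21 ± 0.09 (limma adjusted p = 0.0666), and the dimmer one was called higher at 0.31 ± 0.10 (limma adjusted p = 0.0266). That dimmer probe was above background on only 2 NC arrays, so it was kept through the siRNA arrays alone. It lost its call without NC replicate 1 or 2 and without siRNA replicate 1 or 4, at 0.24, 0.29, 0.26 and 0.29. It also lost it with the replicate block and with an intensity trend, both at 0.31, and with the percentile over bright spots at 0.24 (limma adjusted p = 0.072, 0.0773 and 0.0852), and after normexp it was -0.48 and not called.

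The remaining GST classes were not called. Gstp1, the pi class enzyme long used as a marker of preneoplastic foci in rat liver, gave log2 differences of -0.08 ± 0.05 and 0.04 ± 0.05 with its brighter and dimmer probes (SE). On its brighter probe the processed intensity ran from 54932 to 60538 in NC and from 64649 to 65934 in siRNA arrays, and no spot of the 8 arrays was marked as saturated. Gsto1, which reduces dehydroascorbate, was at -0.06 ± 0.05, and Gsto2 at -0.47 ± 0.23 (0.18 with spike-in scaling). Gstk1, a mitochondrial and peroxisomal enzyme, was at -0.08 ± 0.06. Scaled to spike-in RNA, Gstp1's brighter probe, Gsto1 and Gstk1 were called higher, at 0.57, 0.60 and 0.58. In other settings calls went lower: Gsto1 in 3 of 19 alternatives, Gstp1's brighter probe in 2 of 19 and Gsto2 in 2 of 18. The dimmer Gstp1 probe was called higher in 2 of 19.

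**Figure D3:**
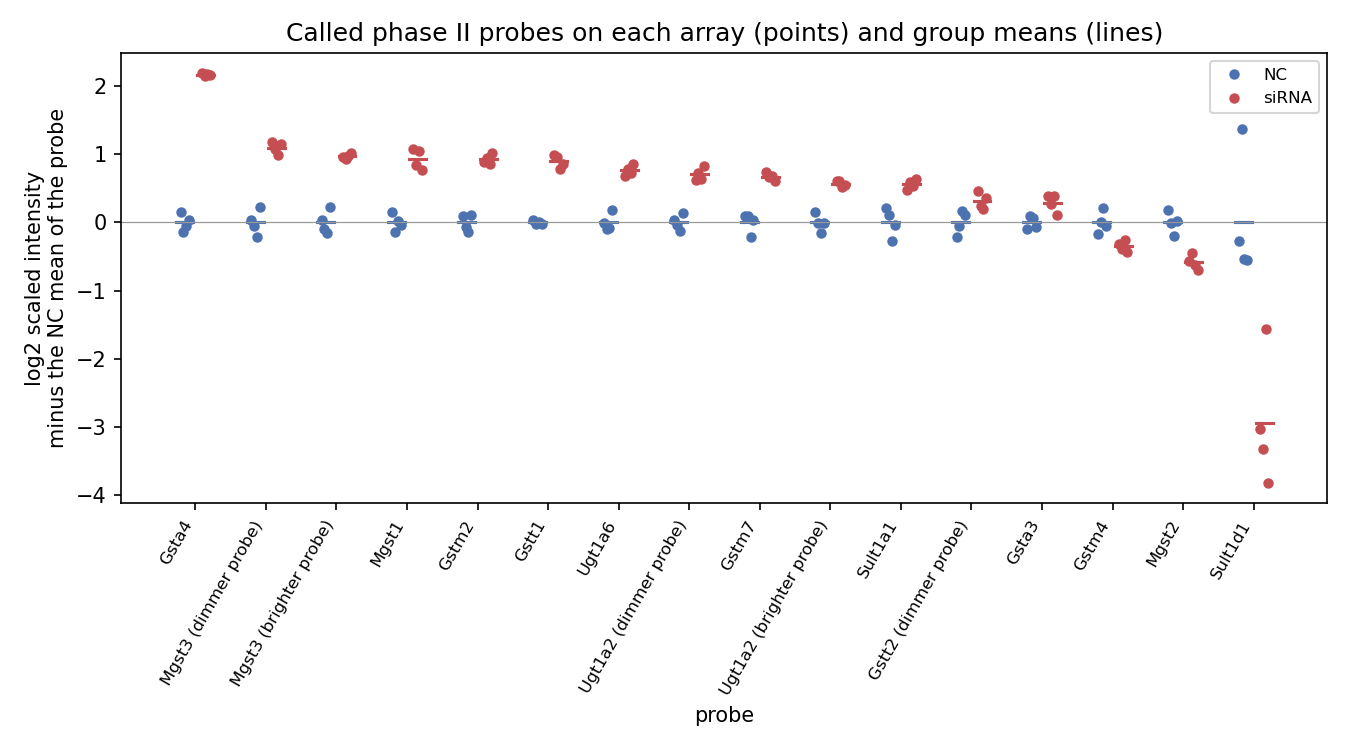
Log2 scaled intensity minus the NC mean of the same probe (vertical axis) on each NC and siRNA array (points), with group means (lines), for the 16 phase II probes called. The siRNA points lie apart from the NC points for each probe shown, and 1 NC point of Sult1d1 stands far above the other NC points. Gstm4 and Mgst2 turn to 0.30 and 0.07 under spike-in scaling.

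Of the sulfotransferases, 4 of 16 probes were kept, all of the SULT1 family. Sult1d1, an enzyme that sulfates dopamine and related amines in rodents, fell the most of all phase II genes tested. Its probe lies at chr14:22001402-22001461 (rn4, plus strand). Sult1d1 gave -2.90, -1.25, -3.16 and -3.18 on the NC arrays and -5.65, -5.96, -4.18 and -6.44 on the siRNA arrays. Every siRNA array was below every NC array, NC replicate 2 stood far above the other NC arrays, and the siRNA arrays spread widely. The log2 difference was -2.94 ± 0.59 (SE, limma adjusted p = 0.0032), with group means of -2.62 ± 0.92 in NC and -5.56 ± 0.97 in siRNA arrays (SD, n = 4).

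The siRNA values of Sult1d1 are close to the detection limit. The probe was well above background on 4 NC arrays but on only 1 siRNA array. It was thus kept through the NC arrays alone, where it is high, and a higher call was hardly possible. With each siRNA array taken at no less than its lowest signal among probes well above background, the fold was 3.40, in place of 7.67 as measured. Without NC replicate 2 the log2 difference was -2.48 (limma adjusted p = 0.00494), after normexp it was -1.14, and after normexp with spots dimmer than local background left out it was -0.80, under 2-fold but still called.

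Sult1a1, the main phenol sulfotransferase, with its probe at chr1:185829753-185829812 (rn4, minus strand), moved the other way. It gave -2.59, -2.69, -3.06 and -2.84 on the NC arrays and -2.32, -2.19, -2.26 and -2.15 on the siRNA arrays. All siRNA arrays lay above all NC arrays, and Sult1a1 rose by 0.56 ± 0.10 (SE, limma adjusted p = 0.00194), while after normexp the difference was -0.10 and not called. Sult1c2 was not called with either of its probes, at -0.30 ± 0.40 and -0.16 ± 0.47. The brighter Sult1c2 probe ran from -2.57 to -2.44 on the NC arrays but from -3.59 to -1.52 on the siRNA arrays, so its spread was far wider in siRNA arrays. Without siRNA replicate 3 it was called lower, at -0.73 (limma adjusted p = 0.00418), and with spike-in scaling the brighter probe was 0.36 and the dimmer 0.49, neither called.

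Of the UGTs, 3 of 17 probes were kept, and all 3 were called higher. They belong to the UGT1 locus on chromosome 9, where each enzyme has its own first exon and all share the later exons. The Ugt1a6 probe, at chr9:87041702-87041761 (rn4, plus strand), reads a transcript whose enzyme glucuronidates simple phenols. It gave -0.85, -0.95, -0.92 and -0.67 on the NC arrays and -0.17, -0.06, -0.12 and 0.02 on the siRNA arrays. Each siRNA array was above each NC array, and the probe rose by 0.76 ± 0.08 on the log2 scale (SE, limma adjusted p = 9.49e-05).

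Both probes named Ugt1a2 lie further along the same strand, at chr9:87095044-87095103 and chr9:87097940-87097999 (rn4). Their accessions in the files belong to 3 genes, Ugt1a2, Ugt1a5 and Ugt1a6, so their signal cannot be assigned to 1 UGT1 transcript. The dimmer one gave 1.11, 1.03, 0.95 and 1.21 on the NC arrays and 1.70, 1.80, 1.72 and 1.90 on the siRNA arrays. The brighter one gave 2.56, 2.40, 2.25 and 2.40 and then 3.0, 3.01, 2.92 and 2.95. Neither probe's groups overlapped, and the log2 differences were 0.70 ± 0.07 and 0.57 ± 0.07 (SE, limma adjusted p = 0.000124 and 0.000257). The within-array difference between Ugt1a6 and the brighter Ugt1a2 probe shifted by 0.19, with overlapping groups. Since the Ugt1a2 probes are also listed under Ugt1a6, the 3 higher calls may read 1 transcript more than once. The gene counts nevertheless take Ugt1a2 and Ugt1a6 as separate genes. Without the probes listed under several genes, an alternative added after seeing the data, 11 phase II probes were called higher and 3 lower. The shares of all probes in the reported fit were 29.4% higher and 32.2% lower.

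The 33 probes not kept were above background on no array in 19 cases, on 1 array in 7, on 2 in 6 and on 3 in 1. They hold all 10 UGT2 probes, the family that glucuronidates steroids and bile acids in hepatocytes, all 4 SULT2 probes, which cover hydroxysteroid sulfotransferases, and the single SULT4, SULT5, UGT3 and UGT8 probes. Also among them were 6 of 10 SULT1 probes, 2 of 5 UGT1 probes and 7 GST probes of the alpha, mu and theta classes. They were not tested in the reported fit, and a signal not above background does not show that a transcript was absent. Without the filter on dim probes, 16 of the 60 probes were called higher and 7 lower, beside 7015 and 10504 of all 41012 probes. Of those not kept, the siRNA arrays lay wholly above the NC arrays for the Gstm3 and Sult5a1 probes. They lay wholly below for 1 probe each of Gstt3, Sult1b1, Sult1c2a and Ugt1a1. Each of these probes was above background on 1 array at most. The share of all probes not kept whose groups did not overlap was not computed, so nothing about these genes is read from it. The groups overlapped on the other probe of Gstt3, Sult1b1 and Sult1c2a. That Gstt3 probe had means of -5.46 in NC and -4.15 in siRNA arrays, and was above background on 2 siRNA arrays.

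The alternatives moved groups of probes together. The median log2 difference over all probes tested became 0.28 when arrays were scaled to their medians, 0.62 when scaled to spike-in RNA and -0.19 after normexp (a background correction with an offset of 50 added to each intensity). Gsta4, Gstm2, Mgst1, Ugt1a6 and both Ugt1a2 probes were called higher in all 19 alternatives. Gstm7, Gstt1, Sult1a1 and both Mgst3 probes were called higher in 18 of 19 alternatives, the exception being normexp with all spots. Sult1d1 was called lower in the 18 alternatives that tested it.

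**Figure D4:**
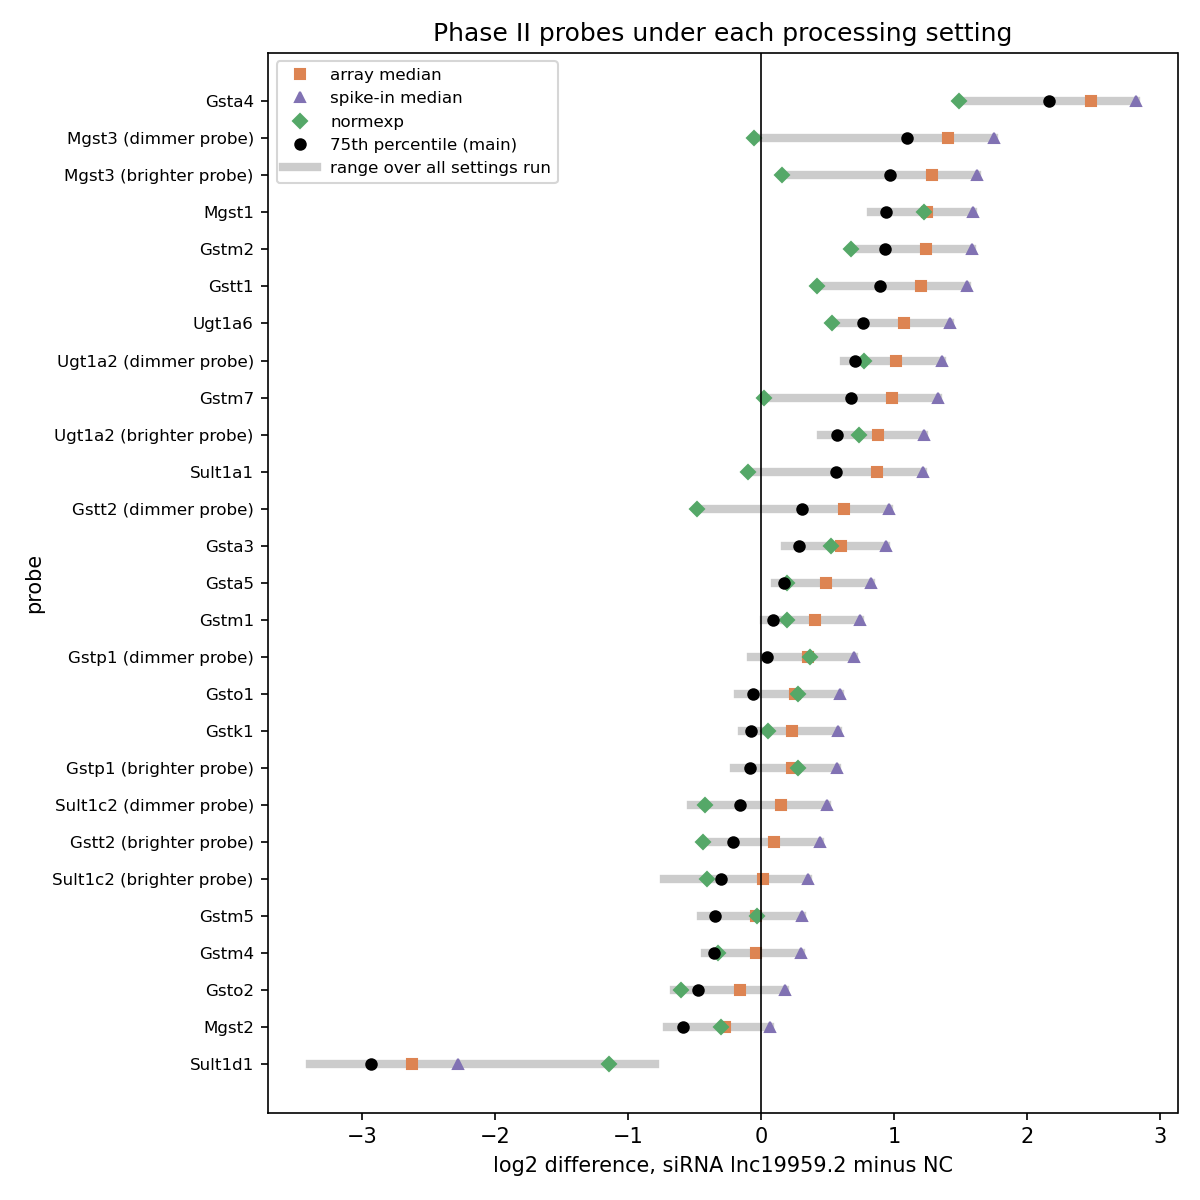
Log2 difference, siRNA minus NC (horizontal axis), of the 27 phase II probes under the reported scaling (black), array median scaling, spike-in scaling and normexp correction (coloured symbols), with a grey bar for the range over all settings run. Gsta4 stays between 1.49 and 2.82, Mgst2 runs from below 0 to 0.07, and the dimmer Mgst3 probe reaches -0.05 after normexp.

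Genes that serve the same pathway were read at their brightest tested probe. Under the reported scaling, the list counts stand beside 35.3% of all genes called higher and 29.3% called lower, and an all-gene median of 0.04. Shares of all genes were not computed for the other settings, so counts over all probes are given there. Of 18 tested cofactor genes, which supply glutathione, UDP-glucuronic acid, PAPS and methyl groups, 6 were higher and 5 lower, with a median of 0.03. Cth, which makes cysteine for glutathione, fell by 1.01 on the log2 scale (SE 0.09). Ahcy, of the methylation cycle, rose by 0.64 ± 0.07, and the PAPS synthase Papss1 rose by 0.50 ± 0.06. The values of a further 3 genes were picked out after they were seen. Papss2, the other PAPS synthase, fell by 0.43 (SE 0.08). Gclc, the catalytic subunit of the enzyme that starts glutathione synthesis, rose by 0.68 ± 0.10, and its partner subunit Gclm fell by 0.43 (SE 0.11). The lower calls of Papss2 and Gclm rest on the scaling: with array medians they were -0.11 and -0.12, and with spike-in scaling both were 0.23, none of these called. Gclm was also not called after quantile normalization or cyclic loess, and none of the 3 genes was called after normexp. The cofactor counts were 11 higher and 1 lower with median scaling, with a median of 0.35, and 13 and 1 with spike-in scaling, with a median of 0.69. After normexp they were 3 and 1, with a median of -0.02, and with the percentile over bright spots 4 and 6, with a median of -0.03. Over all 24853 probes, median scaling gave 13020 higher and 4211 lower with a median of 0.28. Spike-in scaling gave 16958 and 2142 with a median of 0.62. Normexp gave 1935 and 1694 with -0.19, and the percentile over bright spots 6106 and 9304 with -0.10.

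Mercapturate and deconjugation enzymes, which trim glutathione conjugates or take conjugates off again, had 7 higher and 2 lower of 12 tested, with a median of 0.18. Gusb, the lysosomal beta-glucuronidase, rose by 1.17 ± 0.07, and the aminoacylase Acy3 by 1.06 ± 0.08. Ggt1, the gamma-glutamyltransferase of the cell surface, was at least 1.43-fold lower, since no siRNA array was above background, but its call was lost after normexp, at -0.75 (limma adjusted p = 0.143). The counts of this list were 4 higher and 3 lower with the percentile over bright spots and 2 and 1 after normexp. They were 5 and 2 with the replicate block or with no filter on dim probes. All probes had 7097 higher and 7895 lower with the block, and 7015 and 10504 of 41012 without the filter. Of 7 other conjugating enzymes tested, 1 was higher and 3 lower, with a median of -0.23. Gnmt, the glycine N-methyltransferase, was at least 2.10-fold lower. Nnmt was called lower at -0.24 ± 0.07, but was 0.42 and called higher with spike-in scaling, and Tpmt was called higher at 0.19 ± 0.06, a call lost in 11 of the 19 alternatives, such as quantile normalization at 0.13.

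Exporters of conjugates and drugs had 1 gene higher and 4 lower of 8 tested, with a median of -0.27. Abcb4, the phospholipid flippase of the bile canaliculus, was at least 15.3-fold lower. The drug efflux pump Abcb1b fell by 1.53 (SE 0.12), and Abcg2 rose by 0.45 ± 0.06, although Abcg2 was at -0.37 and not called after normexp. Relatives with a GST fold or of the microsomal GST superfamily, but outside the name rule, had 4 higher and 3 lower of 9, with a median of 0.13. Clic3, a chloride channel family protein, was at least 2.13-fold higher, but at -0.23 and not called after normexp. Clic5 rose by 0.74 ± 0.12 and the prostaglandin E synthase Ptges2 by 0.34 ± 0.06. The 3 genes called lower were added after their values were seen. Ptges, another prostaglandin E synthase, was at -2.21 ± 0.40, Clic2 at -0.77 ± 0.24 and Clic4 at -0.24 ± 0.08. The split of this list moved with the processing. It was 6 higher and 1 lower on array medians, 7 and 1 on spike-in RNA, and 1 and 1 after normexp.

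The regulators of these enzymes ran lower, with 3 higher and 8 lower of 12 tested and a median of -0.58. Mafk, a small Maf partner of Nfe2l2, fell by 1.33 (SE 0.09), and Bach1, a repressor at the same sites, fell by 0.97 (SE 0.12). Rxra, the partner of Nr1i2 and Nr1i3, rose by 1.13 ± 0.13, but was at -0.04 and not called after normexp. Nr1i2 and Nr1i3 themselves were above background on no array, and Ahr was not analysed here. Nfe2l2 itself was called lower at -0.22 ± 0.08 (SE, limma adjusted p = 0.0443), and Arnt, of the same list, at -0.71 ± 0.17. These 2 were picked out after their values were seen, and their calls in other settings are not given here. With spike-in scaling the regulators had 5 higher and 2 lower, and a median of 0.07. All probes then had 16958 higher and 2142 lower of 24853, and a median of 0.62.

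Known targets of these regulators outside the phase II families also had more genes lower than higher. Of 5 Ahr targets tested, 4 were lower, with a median of -0.95, and Nqo1 was not called at -0.11 ± 0.08. Cyp1a1, the classic Ahr target, was at least 6.13-fold lower, Aldh3a1 fell by 1.05 (SE 0.06) and Tiparp fell by 0.80 (SE 0.06). Of 11 Nfe2l2 targets tested, 8 were lower and 2 higher, with a median of -0.43. Akr7a3, an aldehyde reductase, was at least 2.19-fold lower, Hmox1, the haem oxygenase, fell by 1.37 (SE 0.13), and Osgin1 fell by 0.67 (SE 0.07). Of 4 Nr1i2 and Nr1i3 targets, 2 were lower, Abcb1a at -1.31 ± 0.33 and Alas1 at -0.18 ± 0.06, with a median of -0.26, while Cyp2b2 and Por were not called at -0.34 ± 0.15 and -0.14 ± 0.08. Of the 19 alternatives, Alas1 lost its call with no change of sign in 7 and changed sign in 3, and with spike-in scaling it was called higher at 0.47, as were Nqo1 at 0.55 and Por at 0.51. With that scaling Bach1, Tiparp, Osgin1 and Abcb1a were not called, at -0.32, -0.14, -0.02 and -0.65, and after normexp Ptges2, Aldh3a1, Tiparp and Osgin1 were not called, at 0.29, -0.68, -0.51 and -0.58. With spike-in scaling the Nfe2l2 list had 5 higher and 3 lower and a median of 0.23, the Ahr list 1 and 2 and -0.30, and the Nr1i2 and Nr1i3 list 2 higher. These stand beside 16958 higher and 2142 lower of all 24853 probes. Median scaling also turned the medians of the other conjugating enzymes, the exporters and the Nr1i2 and Nr1i3 targets positive, at 0.08, 0.04 and 0.05, and spike-in scaling put them at 0.42, 0.38 and 0.40. Gclc, Gclm, Nqo1 and Abcb1a each stand in a pair of these lists. The median of none of these 9 lists changed when genes with only a bound were set to that bound.

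**Figure D5:**
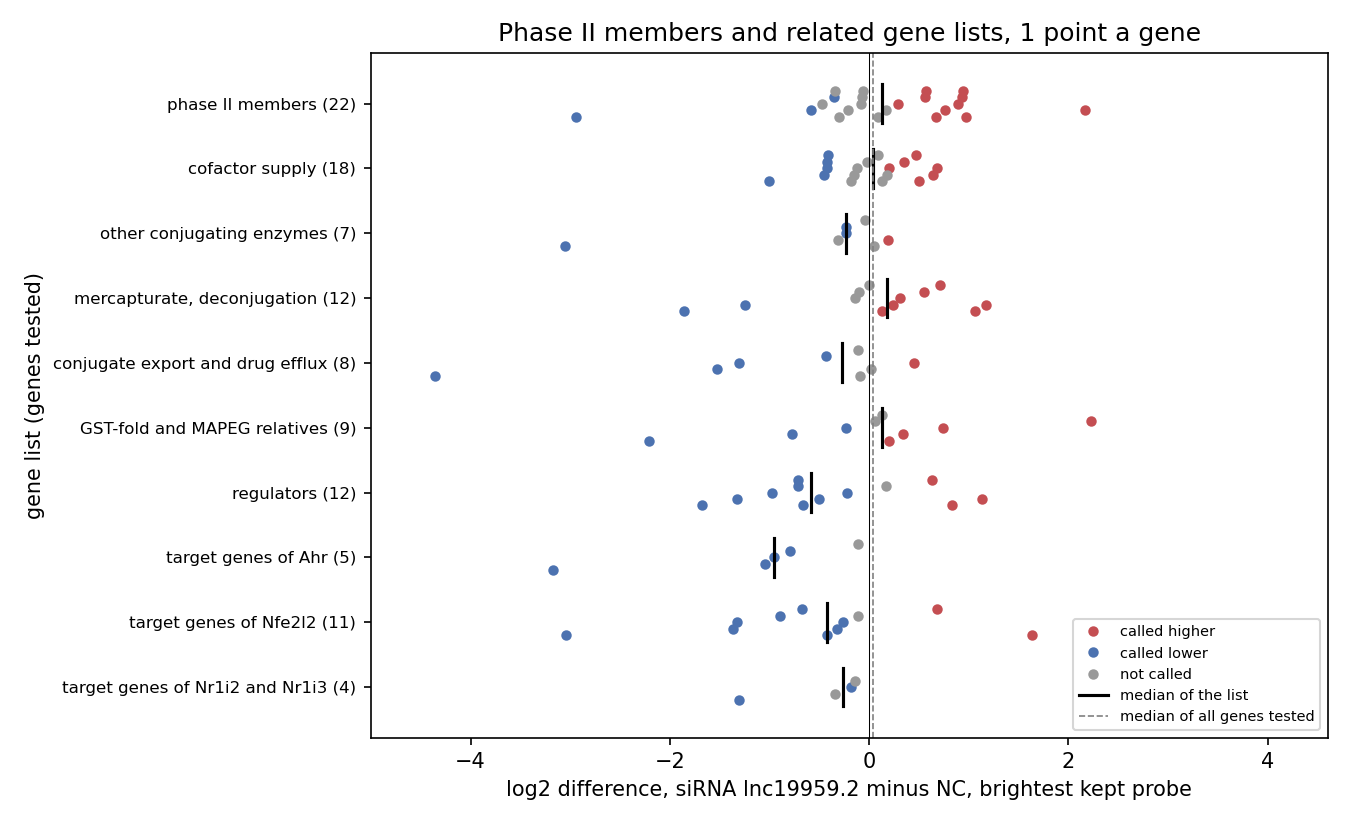
Log2 difference, siRNA minus NC (horizontal axis), of each tested gene at its brightest probe (point, coloured by call), for the phase II members and the 9 related lists, with each list's median (black line) and the all-gene median of 0.04 (dashed). The Ahr targets have the lowest median, -0.95, and the regulators are at -0.58 (0.07 under spike-in scaling, where the median of all probes is 0.62). Genes that no array of 1 group measured are drawn at their fitted value, which is not a bound.

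The windows before the gene starts were searched on both strands for the antioxidant response element TGACNNNGC, the xenobiotic response element core GCGTG and the palindromic HNF1 motif, because these sites serve Nfe2l2, Ahr and HNF1 factors at phase II genes. A RefSeq window of 300 bases, 250 before to 50 after the start on GRCr8, was found for 40 of the 50 names, 17 of them with a tested probe. The antioxidant element was in 5 of the 40 and in 12.1% of 33469 such windows of all genes, the core in 9 and in 29.7%, and the HNF1 motif in 0 and in 0.00299%. Among the 17, the antioxidant element was in the windows of Gsta3 (now Gsta1), Gstm5, Gstm7 and Gstp1, of which Gsta3 and Gstm7 were called higher and the others were not called. The core was in 6 of the 17, namely Gsta4, Gstm4, Gstm5, Gstp1, Mgst3 and Ugt1a6, which include genes called higher, called lower and not called.

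The 250 bases before the start are shown for Gsta4, the gene that rose most, and for Gstm7 and Gstp1, which both hold the antioxidant element but differ in call, with every match of the 3 motifs in capitals. They lie at chr8:87947015-87947264 (plus strand), chr2:198260320-198260569 (minus) and chr1:210769706-210769955 (minus) of GRCr8.
Gsta4: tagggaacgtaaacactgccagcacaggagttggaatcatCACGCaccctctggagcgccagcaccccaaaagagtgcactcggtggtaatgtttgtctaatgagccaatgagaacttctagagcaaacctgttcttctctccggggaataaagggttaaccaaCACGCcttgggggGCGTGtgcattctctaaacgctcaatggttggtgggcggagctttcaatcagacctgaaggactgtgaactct
Gstm7: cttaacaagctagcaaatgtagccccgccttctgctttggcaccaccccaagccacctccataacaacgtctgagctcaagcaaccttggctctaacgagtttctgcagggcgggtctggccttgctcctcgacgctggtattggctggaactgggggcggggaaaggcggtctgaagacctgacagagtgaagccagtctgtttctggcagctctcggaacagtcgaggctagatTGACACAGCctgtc
Gstp1: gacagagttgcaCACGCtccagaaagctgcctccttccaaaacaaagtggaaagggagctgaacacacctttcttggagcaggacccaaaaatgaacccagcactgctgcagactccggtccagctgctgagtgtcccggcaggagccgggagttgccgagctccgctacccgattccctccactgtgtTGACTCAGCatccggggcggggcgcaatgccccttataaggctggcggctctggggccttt
A match in these letters is a description of the window and not evidence of a bound factor.

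Markers of other liver cell types moved between the groups as well, and their part in the phase II differences was not tested. The summed levels given here are log2 of sums, so the brightest markers carry them, and they can differ from the list's median in direction. Of the 7 hepatocyte markers tested, 2 were higher and 3 lower, with a median difference of -0.75. Cyp2e1, an ethanol-inducible cytochrome P450, rose by 4.94 ± 0.30 and Hnf4a by 0.83 ± 0.22, with Hnf4a above background on only 1 NC array. The apolipoprotein Apoa1 fell by 4.45 (SE 0.20), the keratin Krt18 by 3.20 (SE 0.37) and G6pc1 by 1.13 (SE 0.12). Apoa1 and Krt18 were each above background on only 1 siRNA array, so the sizes of their falls are limited by the detection limit. The summed level of the hepatocyte markers tested ran from 0.75 to 0.91 in NC and from 2.32 to 2.76 in siRNA arrays.

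Of 10 fibroblast or stellate markers, 7 were tested, 3 higher and 1 lower, with a median of 0.13 and sums of 8.06 to 8.20 and 8.29 to 8.36. The collagen genes Col3a1 and Col1a2 rose by 2.66 ± 0.07 and 0.61 ± 0.05, and Dcn rose by 1.64 ± 0.31. Pdgfrb fell by 0.50 (SE 0.11), and Lrat was above background on no array. Endothelial markers had 4 of 6 tested, 2 higher and 2 lower, with a median of -0.74 (-0.58 with genes at their bounds) and sums of 0.59 to 1.05 and 1.62 to 2.08. The receptor Kdr rose by 1.64 ± 0.19 and Cdh5 was at least 1.31-fold higher. Vwf was at least 8.18-fold lower and Tek at least 2.93-fold lower, and Pecam1 was above background on no array. Cholangiocyte markers had 3 of 6 tested, 1 higher and 2 lower, with a median of -0.46 and sums of 1.08 to 1.25 and 2.08 to 2.28. The keratin Krt7 rose by 1.75 ± 0.11, while Spp1 fell by 0.46 (SE 0.08) and Sox9 by 1.01 (SE 0.32). Sox9 was above background on only 1 siRNA array, so the size of its fall is limited in the same way. Neither Epcam nor Cftr was above background on any array. Macrophage or leukocyte markers had 2 of 9 tested, with sums of 2.68 to 2.86 and 2.36 to 2.64. Cd68 fell by 2.40 (SE 0.09), Cd14 was not called at 0.20 ± 0.08, and neither Adgre1 nor Cd163 was above background on any array. Cd14 was called higher in 6 of the 19 alternatives. With spike-in scaling the hepatocyte markers had 3 higher and 3 lower with a median of -0.09, and the fibroblast or stellate markers 6 and 0 with 0.79. The cholangiocyte markers had 1 and 0 with 0.20, the endothelial 2 and 2 with -0.08, and the macrophage or leukocyte 1 and 1 with -0.45. The all-probe median was then 0.62.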

How the data were processed

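The 8 arrays are 1-colour Agilent whole rat genome arrays. The deposited scanner output held processed intensity per spot from Agilent Feature Extraction 12.0, per the submitters' processing notes, already background-corrected per the file headers, with rn4 positions. The deposited table of log2 values lists 86 probes, none of a phase II enzyme, and was not used. Control and outlier spots were left out and spots of a probe averaged. The arrays of both groups were fitted with limma 3.58.1 under R 4.3.3 (two-sided moderated test, lmFit then eBayes) without covariates, and the code was tested on simulated data. Genes were represented by their brightest tested probe. Names come from the files, and 4 member names differ from the current RefSeq symbol of GRCr8. A bound ("at least N-fold") compares the bright group's mean with the dim group at no less than each array's lowest signal among probes well above background.

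Array values were given for genes past the threshold with a log2 difference of at least 1 at the brightest probe (Gsta4 and Sult1d1). By rule, up to 3 called genes of smallest adjusted p were named per pathway list. For the cell types, all called markers were named. Array values of other members were added after their values were seen. The members and lists were chosen with earlier results of these data known. Alternatives covered scaling, background correction, the filter on dim probes, a replicate block and leaving out each array. The number of arrays limits the precision.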

Additional observations from a re-analysis of the deposited data

Results flagged for a closer look

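For Sult1d1, the level on NC replicate 2 was -1.25, against -3.18 to -2.90 on the other NC arrays, and its gap to the nearest of them took up 0.854 of the range of the group. It was the only such array in 54 groups of 4 values, where chance alone flags about 1 in 20. Without NC replicate 2 the log2 difference of Sult1d1 was -2.48 (limma adjusted p = 0.00494).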

How the results depend on the processing

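The count of phase II probes called lower, 3 as reported, was 1 with median scaling, spike-in scaling or normexp, 5 with quantile normalization or with normexp without spots dimmer than local background, 6 with cyclic loess, and 7 with the percentile over bright spots or with no filter on dim probes. Without single arrays it ran from 3 to 5. It was 5 without NC replicate 4 or siRNA replicate 3, beside 7205 and 7581 of all probes. The count called higher, 13 as reported, was 21 with spike-in scaling and 6 after normexp, and 12 to 13 without single arrays. Of all probes, from 6541 to 7286 were called higher and from 6468 to 7796 lower without single arrays. Normexp left 6 phase II genes called, against 13, and 3629 of all probes, against 15316. The values given next changed sign and were called on at least 1 side of the change. Sign changes between values not called on either side were left out. With median scaling, Gstk1 was 0.24, Gsto1 0.25, Gstp1 0.23 (brighter probe), Nnmt 0.0753 and Alas1 0.13. With quantile normalization, Gclm was 0.044. With spike-in scaling, Gstk1 was 0.58, Gstm4 0.30, Gsto1 0.60, Gstp1 0.57, Gstt2 0.44 (brighter probe), Mgst2 0.0699, Papss2 0.23, Gclm 0.23, Nnmt 0.42, Nqo1 0.55, Por 0.51 and Alas1 0.47. After normexp, Gstt2 was -0.48 (dimmer probe), Mgst3 -0.0514 (dimmer probe), Sult1a1 -0.10, Nnmt 0.0309, Abcg2 -0.37, Clic3 -0.23, Rxra -0.0446 and Alas1 0.16, and Gstt2 was -0.0345 (dimmer probe) with dim spots also left out. The cause was not tested. Over all probes, the split of 7310 higher and 8006 lower became 13020 and 4211 on array medians and 16958 and 2142 on spike-in RNA. It was 6106 and 9304 with the percentile over bright spots, 8081 and 6823 after quantile normalization, and 7454 and 7475 after cyclic loess. After normexp it was 1935 and 1694, and with dim spots also left out 6835 and 8571. With no filter on dim probes it was 7015 and 10504 of 41012.

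A replicate block gave 12 phase II probes higher and 4 lower, beside 7097 and 7895 of all probes, and 14 phase II genes called. Deviations of same-numbered arrays correlated at 0.0133, 0.0299, -0.0321 and 0.209, so the numbers were not taken as pairs. A slide block could not be fitted, since each slide holds 1 group, and the deposited table holds no phase II probe. Signals near background, as for Sult1d1 and the 33 probes not kept, limit the fold changes that can be read.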
